A study of Mus musculus with 36 samples.

Results

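Tmem119 was followed across all cells of a single-cell RNA-seq study of mouse microglia, the resident macrophages of the brain. It is 1 of 26348 genes with a count in the files, and it was chosen by name and not by its values. The gene (ENSMUSG00000054675) lies on chromosome 5 of GRCm38 from 113793729 to 113800516, on the minus strand. GENCODE vM21 gives it 2 transcripts of 2 to 3 exons, with a single coding exon from 113794899 to 113795738 that holds 840 coding bases.

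Tmem119 encodes a membrane protein with one transmembrane stretch. In the brain it is known as a marker that separates resident microglia from macrophages that enter from the blood or sit at the brain's borders, and its expression in microglia depends on TGF-beta signalling. Its role in microglia is little understood, and in bone the same protein is known for promoting osteoblast differentiation. It is counted among the homeostatic genes of microglia, a group that is lowered in the disease-associated state found around amyloid plaques.

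The cells came from male mice aged 6 months that carried amyloid-forming transgenes, mutant APP among them (called APP here), and from controls (WT). In this strain the prion protein promoter drives the transgenes, mainly in neurons, so no microglial promoter is involved. Sorted microglia were DAPI-negative, DRAQ5-positive, CD11b-high and CD45-intermediate, and were gated further on CD11c, an integrin carried by microglia near plaques. The 6 groups were WT CD11c-negative, APP CD11c-negative and APP CD11c-positive cells, each from cortex and from hippocampus. By the titles no library holds WT CD11c-positive cells. Counts of all libraries from 1 animal, region and gate were added up to 1 replicate, which gave 4 replicates in each group and 3 in APP hippocampus CD11c-positive, named 1-2, 2-3 and 4. The names 1-2 and 2-3 may mark pools that share animal 2. Whether samples of 1 group came from separate animals rests on the titles alone.

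The 36 libraries held 2657 cells after filtering, with a median of 19482 counts and 805 genes per cell, and the 23 replicates held 1037425 to 4484427 counts. Plate barcodes were reused: 83 barcode sequences occurred, 36 of them in every library and 1 in a single library. All 12 microglial markers other than Tmem119 had counts in every group, and their summed level ran from 14783 to 30366 CPM, which are counts scaled to a common library total. Groups follow the titles, and the genotype tag of the labels went against the title in 17 of 36 libraries, among them every CD11c-positive hippocampal library. A further number in the titles, which may name a library set, differed between the genotypes, between the regions and, in hippocampus, between the gates, so a difference between sets and those comparisons cannot be told apart. In cortex both gates of an animal shared that number.

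Tmem119 was an abundant transcript of CD11c-negative microglia. In CD11c-positive cells it stood 3.64-fold to 4.58-fold lower than in APP or WT CD11c-negative cells of the same region. In APP hippocampus CD11c-negative cells it stood at 2175, 2479, 2401 and 2696 CPM (mean 2438 ± 215, SD, n = 4). WT hippocampus gave 2025, 1873, 2770 and 1924 CPM (2148 ± 419, n = 4). APP cortex CD11c-negative gave 1747, 1880, 1654 and 1370 CPM (1663 ± 216, n = 4). WT cortex gave 1672, 1366, 1812 and 1225 CPM (1519 ± 270, n = 4). Each of these 4 groups overlapped the next in that order. APP hippocampus CD11c-positive gave 559, 516 and 521 CPM (532 ± 23.2, n = 3). APP cortex CD11c-positive gave 401, 439, 428 and 400 CPM (417 ± 19.6, n = 4). Every CD11c-positive replicate lay below every CD11c-negative replicate, and the 2 CD11c-positive groups did not overlap each other. Between 13 pairs of libraries of the same replicate the level differed 1.04-fold to 1.46-fold, with a median of 1.17-fold. The sums hold 4877 Tmem119 counts in the smallest group and 24667 in the largest.

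**Figure D1:**
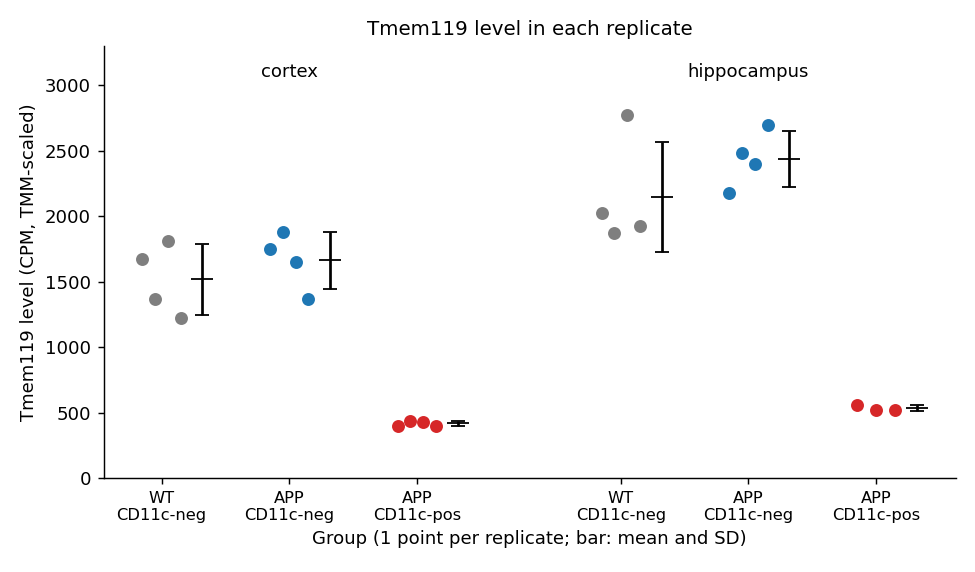
Tmem119 level on the y axis, in TMM-scaled CPM, for each replicate of the 6 groups, with 1 point per replicate and the group mean and SD beside it. The CD11c-positive replicates sit between 400 and 559 CPM, and all CD11c-negative replicates lie between 1225 and 2770 CPM.

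The CD11c gate was compared first, within APP mice. In cortex Tmem119 was 3.99-fold lower in CD11c-positive cells, with a log2 value of −1.995 ± 0.149 (SE, 95% interval −2.31 to −1.68, n = 4 and 4, edgeR adjusted p = 8.58e-09). In hippocampus it was 4.58-fold lower, at −2.20 ± 0.167 (95% interval −2.55 to −1.84, n = 3 and 4, edgeR adjusted p = 2.59e-08). Ordered by p over the 14892 genes tested, Tmem119 stood at rank 2 in cortex, behind the semaphorin gene Sema4b, and at rank 1 in hippocampus. The same fit called 1.23% of all genes in cortex, with 0.705% lower, and 0.551% in hippocampus, with 0.107% lower. The difference between the gates was −0.20 ± 0.21 further in hippocampus than in cortex (95% interval −0.65 to 0.25, edgeR adjusted p = 1), so the size of the drop was not shown to differ between the regions. For that difference edgeR called 0 genes (0%), 1116 lay at an unadjusted p under 0.05, DESeq2 called 248 and limma voom 18.

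Several measures moved with the gate. CD11c-positive cells gave more genes at 5000 counts per cell, with means of 835 in cortex and 871 in hippocampus against 549 and 622 in CD11c-negative APP cells. In cortex the replicates ran from 686 to 992 and from 469 to 649 genes, and in hippocampus from 729 to 992 and from 583 to 650. The gates thus did not overlap in genes per cell, so a call lost with genes per cell in the fit is not read as a lost difference. The mitochondrial share of counts was 2.08% to 3.24% in CD11c-positive and 0.903% to 1.74% in CD11c-negative replicates of APP cortex, and 2.01% to 2.66% and 1.096% to 1.1997% in hippocampus, with no overlap in either, and its part in the result was not tested. When genes per cell entered the fit the gate differences were −1.896 in cortex (edgeR adjusted p = 9.97e-05) and −2.11 in hippocampus (edgeR adjusted p = 1.64e-05). Border macrophage markers summed to 54.4 to 96.9 CPM in hippocampal CD11c-positive and 0 to 12.1 CPM in hippocampal CD11c-negative replicates, with counts of 4 and 2 of 8 markers, and Cd163, Lyve1, Cbr2 and Folr2 were at 0 in the former. In cortex they summed to 0 to 28.2 and 0 to 20.7 CPM. Monocyte markers summed to 28.99 to 100.4 CPM in hippocampal CD11c-positive and 0 to 36.4 CPM in hippocampal CD11c-negative replicates, with counts of 2 and 1 of 5 markers and Plac8, S100a4 and Chil3 at 0 in both. In cortex these summed to 0.446 to 11.2 and 0.610 to 57.3 CPM. No cell held 3 or more border macrophage markers, and of 5 cells with 2 of them 2 had a Tmem119 count. Astrocyte markers summed to 725 to 1856 CPM in CD11c-positive and 392 to 1115 CPM in CD11c-negative APP cortex, all 6 of 6 with counts in both. In hippocampus they went the other way with no overlap, at 134 to 146 and 175 to 384 CPM, with 4 of 6 in both. Oligodendrocyte markers summed to 379 to 508 and 132 to 268 CPM in cortex, with no overlap and counts of 6 and 5 of 6. In hippocampus these overlapped, at 48.6 to 94.1 and 12.9 to 133 CPM. Without the 303 cells that held markers of other cell types the gate differences were −1.98 in cortex (edgeR adjusted p = 7.49e-09) and −2.29 in hippocampus (edgeR adjusted p = 9.24e-09). With only the libraries whose genotype tag matches the title the cortical difference was −1.92 (edgeR adjusted p = 0.000325), and no such library was left for CD11c-positive hippocampus. With 1-2 and 2-3 counted as 1 replicate the hippocampal difference was −2.21 (edgeR adjusted p = 1.52e-06).

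Against WT cells of the same region, CD11c-positive APP cells were again lower in Tmem119. These comparisons share the CD11c-positive samples with the gate comparisons and are given beside them. The log2 fold change was −1.86 ± 0.148 in cortex (n = 4 and 4, edgeR adjusted p = 3.29e-08) and −2.01 ± 0.166 in hippocampus (n = 3 and 4, edgeR adjusted p = 6.73e-08). Of all genes 1.07% were called in cortex and 2.07% in hippocampus.

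CD11c-negative cells of APP and WT mice were compared to ask whether amyloid changes microglia outside the gate. The Tmem119 level did not pass the threshold in cortex, at 0.13 ± 0.144 on the log2 scale (95% interval −0.17 to 0.43, n = 4 and 4, edgeR adjusted p = 1). It did not pass in hippocampus either, at 0.18 ± 0.144 (95% interval −0.12 to 0.49, n = 4 and 4, edgeR adjusted p = 0.668). In cortex edgeR called 0 genes (0%), 1354 lay at an unadjusted p under 0.05, DESeq2 called 245 and limma voom 19, while in hippocampus 1.52% were called. The hippocampal value depended on the setting. It was 0.44 with library totals only (edgeR adjusted p = 0.114), where the median of all genes also stood at 0.27 in place of 0.01. Relative to that median it was 0.17 under both scalings. With TMM scaling kept and cells thinned to equal depth before summing, the hippocampal value was 0.44 as well (SE 0.149, edgeR adjusted p = 0.133). The difference between the regions in the genotype effect was 0.05 ± 0.20 (edgeR adjusted p = 1), with 1.01% of genes called. With only the libraries whose tag matches the title the genotype values were 0.04 in cortex and 0.13 in hippocampus.

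The Tmem119 level in CPM stood higher in hippocampus than in cortex in each of the 3 kinds of cell, and the replicates of the 2 regions did not overlap. Between the regions it passed the threshold in APP CD11c-negative cells, at 0.55 ± 0.144 on the log2 scale (n = 4 and 4, edgeR adjusted p = 0.0402), where 2.29% of genes were called and 0.154% were higher. In WT cells the value was 0.50 ± 0.144 (n = 4 and 4, edgeR adjusted p = 0.0743, 1.63% of genes called). In APP CD11c-positive cells it was 0.35 ± 0.155 (n = 3 and 4, edgeR adjusted p = 0.387, 0.222% of genes called). The median of all genes stood at −0.10, −0.22 and −0.15 in these comparisons. With cells thinned to equal depth before summing, the value was 0.58 in APP CD11c-negative cells (edgeR adjusted p = 0.0356) and 0.26 in WT cells (edgeR adjusted p = 0.456). In APP CD11c-positive cells it was 0.29 and not called. At 5000 counts per cell the mean Tmem119 count of WT replicates overlapped, at 9.55 to 12.1 in hippocampus and 8.16 to 10.4 in cortex. The APP replicates did not overlap by that measure. The call in APP CD11c-negative cells is not firm: the adjusted p was 0.239 in the 2-group fit with the animal as a block and 0.0536 in the same fit without it (edgeR). The number in the titles that may name a library set differed between the regions in all 3 comparisons.

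Transcripts of other brain cells differed between the regions too. All 7 neuronal markers had counts in each cortical group, with sums of 331 to 1375 CPM, whereas 3 to 5 of 7 had counts in the hippocampal groups, with sums of 0 to 185 CPM and Rbfox3 and Gad1 at 0 in all of these. Cells with markers of other types made up 7.74% to 37.1% of a cortical and 0% to 4.14% of a hippocampal replicate. Without those cells the regional difference was 0.38 in APP CD11c-negative cells (edgeR adjusted p = 0.275), 0.24 in WT cells (edgeR adjusted p = 0.514) and 0.08 in APP CD11c-positive cells (edgeR adjusted p = 1). With only the libraries whose tag matches the title it was 0.67 in APP CD11c-negative (edgeR adjusted p = 0.220) and 0.58 in WT cells (edgeR adjusted p = 0.323).

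The share of cells with a Tmem119 count was taken after thinning each cell to 5000 counts, which left out 73 cells and kept 2584. In APP hippocampus CD11c-negative cells 84.8%, 87.5%, 91.5% and 93.8% had a count (mean 89.4% ± 4.05, SD, n = 4), the highest of the 6 groups. WT cortex gave 70.4%, 73.4%, 70.5% and 76.0% (72.6% ± 2.67, n = 4). APP cortex CD11c-negative gave 58.5%, 57.4%, 74.7% and 62.1% (63.2% ± 7.92, n = 4). The last of these spread more widely than the WT cortex replicates and overlapped them. WT hippocampus gave 60.8%, 54.1%, 70% and 58.6% (60.9% ± 6.71, n = 4). APP hippocampus CD11c-positive gave 56.5%, 30.2% and 47.8% (44.8% ± 13.4, n = 3). APP cortex CD11c-positive gave 26.8%, 28.3%, 46.0% and 41.8% (35.7% ± 9.65, n = 4). Both CD11c-positive groups thus kept cells with a Tmem119 count, and their replicates overlapped each other. Before thinning the group means were 93.8%, 79.6%, 69.7%, 69.97%, 60.8% and 45.7% in the same order.

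**Figure D2:**
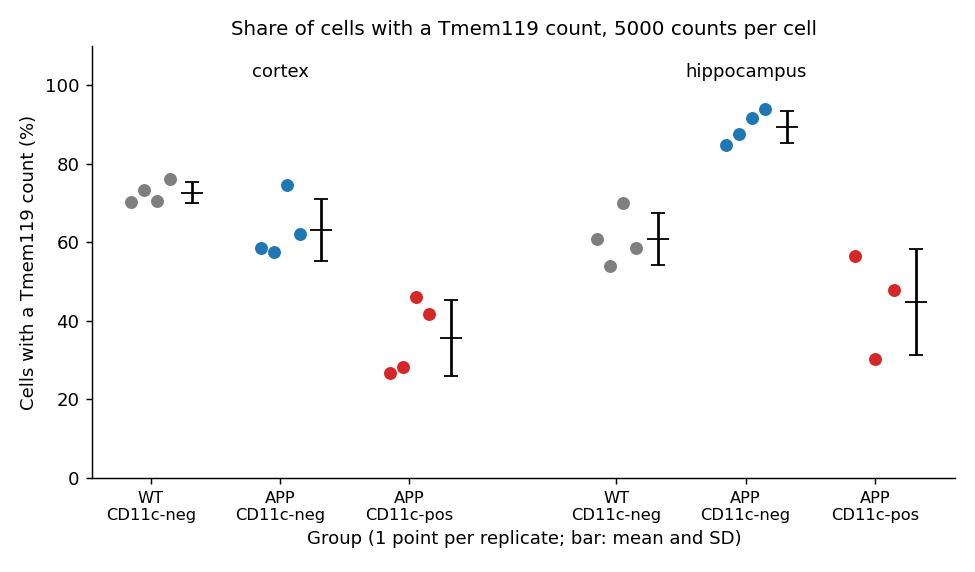
Percentage of cells with at least 1 Tmem119 count on the y axis after thinning to 5000 counts per cell, with 1 point per replicate and the group mean and SD beside it. APP hippocampus CD11c-negative replicates lie between 84.8% and 93.8%, and APP cortex CD11c-positive replicates between 26.8% and 46.0%.

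In cortex the share was 27.4 percentage points lower in CD11c-positive than in CD11c-negative APP cells, with no overlap (exact permutation test, two-sided, p = 0.0286, adjusted over 9 comparisons 0.0514). In hippocampus it was 44.6 points lower, also with no overlap (exact permutation test, p = 0.0571, adjusted 0.0857). These are the smallest p values that 4 against 4 and 4 against 3 replicates allow. None of the 9 adjusted values lies under 0.05. Most other genes differed in the opposite direction: among 610 other genes seen in at least 20% of thinned cells, 4.43% were lower without overlap in cortex and 1.8% in hippocampus, and 43.8% and 57% were higher. The median difference over those genes was 10.6 points in cortex and 12.5 points in hippocampus. Only 1 of the 610 genes had a lower difference than Tmem119 in cortex, and 0 had one in hippocampus.

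The level within cells that had a count was lower in CD11c-positive cells as well, with no overlap between the gates. The median count per positive cell, at 5000 counts, was 5.75 ± 1.5 in CD11c-positive and 13.9 ± 4.17 in CD11c-negative APP cortex (SD, n = 4 and 4). In hippocampus it was 5.50 ± 1.80 (n = 3) and 15.5 ± 1 (n = 4), and in WT cells it was 11.9 ± 1.55 in cortex and 15.6 ± 2.29 in hippocampus (n = 4 each). The mean count over all cells differed between the gates by −2.08 on the log2 scale in cortex, made up of −0.82 from the share and −1.26 from the positive cells. In hippocampus it differed by −2.39, made up of −0.997 from the share and −1.39 from the positive cells. Cells with more than 20 Tmem119 counts made up 17.3% of CD11c-negative and 0.504% of CD11c-positive APP cortical cells, and 30.04% and 1.68% of the hippocampal ones. Cells with 0 counts made up 36.8% and 64.3% in cortex and 10.6% and 55.2% in hippocampus.

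**Figure D3:**
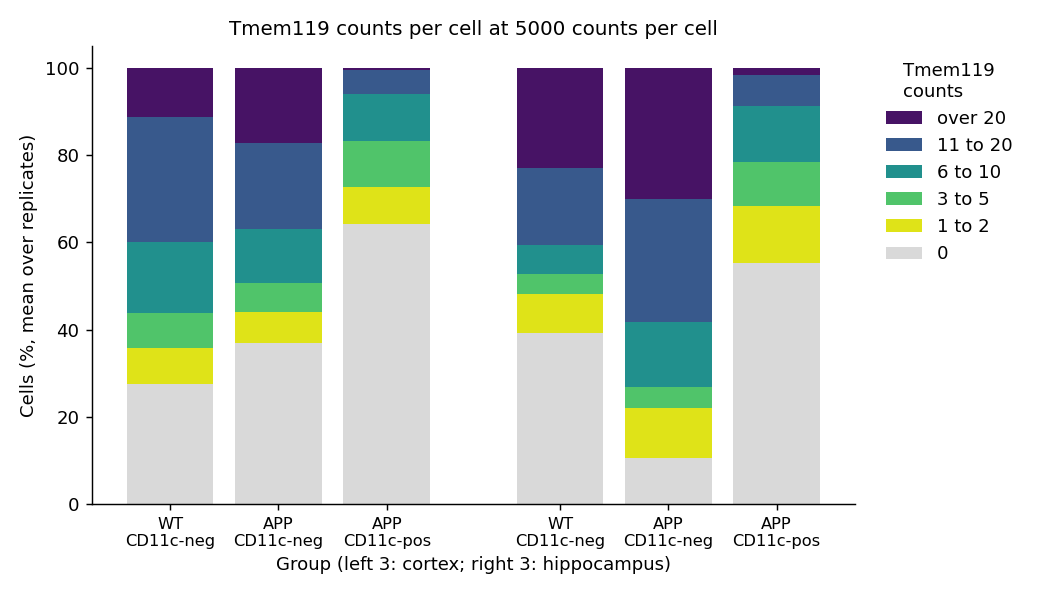
Percentage of cells on the y axis, as the mean over replicates, in each class of Tmem119 count at 5000 counts per cell, stacked for the 6 groups. The class with more than 20 counts holds 0.504% and 1.68% of cells in the CD11c-positive groups and 11.4% to 30.04% in the CD11c-negative groups.

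CD11c-negative hippocampal cells had a Tmem119 count more often in APP than in WT mice, by 28.6 points with no overlap (exact permutation test, two-sided, n = 4 and 4, p = 0.0286, adjusted 0.0514). The median count of positive cells was 15.5 and 15.6, so on the log2 scale the share accounted for 0.55 and the positive cells for −0.04 of a difference of 0.52 in mean count. Genes per cell at 5000 counts moved the same way, from 437 ± 38.1 in WT to 622 ± 30.9 in APP cells (SD, n = 4 each). The mitochondrial share of counts did too, from 0.591% to 0.722% in WT and 1.096% to 1.1997% in APP replicates. Among the other 610 genes 29.2% were higher without overlap and the median difference was 3.51 points, while 6 genes had a larger difference than Tmem119. All 25 other homeostatic genes had a higher mean share in APP hippocampus, 16 of them without overlap, with a median difference of 12.98 points. Of the 610 genes 377 had a higher mean share. Only 14 of the 25 homeostatic genes are among the 610, so the list and that background are not sets of like genes. The purinergic receptor gene P2ry12 went from 65.0% to 90.1%, the fractalkine receptor gene Cx3cr1 from 52.9% to 84.4% and the CSF1 receptor gene Csf1r from 63.4% to 88.3%. The part of genes per cell and of the mitochondrial share in these values was not tested.

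In cortex the share of Tmem119 was 9.40 points lower in APP than in WT CD11c-negative cells, with overlapping replicates (exact permutation test, n = 4 and 4, p = 0.114, adjusted 0.129). Among the other genes 2.79% were lower without overlap. Between the regions the share was 26.2 points higher in hippocampus than in cortex of APP CD11c-negative cells (exact permutation test, n = 4 and 4, p = 0.0286, adjusted 0.0514), where 13.4% of the other genes were higher without overlap. In WT cells it was 11.7 points lower in hippocampus (exact permutation test, n = 4 and 4, p = 0.0286, adjusted 0.0514), where 18.2% of the other genes were lower without overlap. That share goes against the WT level in CPM, so no order of the WT regions is read from it. In APP CD11c-positive cells the share was 9.08 points higher in hippocampus (exact permutation test, p = 0.286). Against WT cells, CD11c-positive cells were 36.8 points lower in cortex (exact permutation test, n = 4 and 4, p = 0.0286, adjusted 0.0514), where 5.41% of the other genes were lower without overlap, and 16.1 points lower in hippocampus with overlap (exact permutation test, p = 0.114, adjusted 0.129).

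Free RNA in the wells would give a Tmem119 count to cells that do not make it, and these sorts held no cell type to measure that by. Only 2 cells had counts of fewer than 3 of the 12 microglial markers, 1 of them with a Tmem119 count. Of the cells with markers of another type 60.4% had a Tmem119 count at any depth, against 70.01% of the rest. Their median depths were 27520 and 18683 counts. These shares pool all groups, so they do not show a difference within a group. After thinning, cells with such markers had the higher share in APP cortex CD11c-positive (39.0% of 154 against 34.3%). They also did in WT hippocampus and APP hippocampus CD11c-negative, with 6 and 7 such cells. They had the lower share in WT cortex (66.7% of 60 against 73.1%), APP cortex CD11c-negative (57.4% of 61 against 62.3%) and APP hippocampus CD11c-positive.

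Some of the other homeostatic genes fell in CD11c-positive cells too. Of 25 tested, 9 fell and 0 rose in cortex, where 0.705% of all genes fell, and 6 fell and 0 rose in hippocampus, where 0.107% of all genes fell. The list had median log2 fold changes of −0.84 and −0.76, and the median of all genes was 0.19 and 0. P2ry12, a receptor that guides microglial processes, fell by 1.34 in cortex (SE 0.157, edgeR adjusted p = 1.53e-05) and by 0.99 in hippocampus (SE 0.171, edgeR adjusted p = 0.00392). Csf1r, the receptor microglia need to survive, fell by 0.80 in cortex (SE 0.183, edgeR adjusted p = 0.0235) and stood at −0.62 in hippocampus (edgeR adjusted p = 0.230). Cst3, which encodes cystatin C, stood at −0.21 in cortex (edgeR adjusted p = 0.300). Chosen after their values were seen, the 2 members further down than Tmem119 were Crybb1 (−3.76 ± 0.647, edgeR adjusted p = 0.00164) and Adora3 (not called) in cortex, and Adgrg1 (−2.57 ± 0.451, edgeR adjusted p = 0.00417) and Crybb1 (not called) in hippocampus. The Csf1r call was lost without APP cortex CD11c-negative replicate 2 (edgeR adjusted p = 0.0636) and without CD11c-positive replicate 2 (0.0745) or 3 (0.0559), and the Adgrg1 call without CD11c-positive replicate 2-3 (0.0571). When genes per cell entered the fit, 2 homeostatic genes were called lower in cortex and 3 in hippocampus. Genes per cell did not overlap between the gates, so the calls lost there are not read as lost differences.

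Part of the disease-associated genes rose in the same comparisons. Of 25 tested members of 26, 16 rose and 0 fell in cortex and 11 rose and 0 fell in hippocampus, with median log2 fold changes of 3.45 and 2.55. Of all genes 0.524% and 0.443% rose. The cortical count was 10 without CD11c-negative replicate 1, 9 without CD11c-negative replicate 2 and 10 without CD11c-positive replicate 1, and the hippocampal count was 7 and 6 without CD11c-negative replicates 1 and 2. The tetraspanin gene Cd63 rose by 1.97 ± 0.204 in cortex (edgeR adjusted p = 3.44e-06) and 1.86 ± 0.214 in hippocampus (edgeR adjusted p = 2.51e-05). Fth1, the ferritin heavy chain, rose by 1.40 ± 0.186 (edgeR adjusted p = 7.54e-05) and 1.20 ± 0.196 (edgeR adjusted p = 0.00232). In hippocampus the more abundant Ctsd (0.19, edgeR adjusted p = 0.816) and Ctsb (0.74, edgeR adjusted p = 0.0591) were not called. B2m (1.09, edgeR adjusted p = 0.000889) and Ctsz (0.90, edgeR adjusted p = 0.00743) were called there, and each of these genes was called in cortex. Both lists were chosen with earlier results of these data known, so their direction is not independent evidence.

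Signals and factors that are known to hold up microglial identity were looked at next. Of the TGF-beta pathway 19 of 23 members were tested, 3 fell in cortex and 0 in hippocampus, beside 0.705% and 0.107% of all genes, and the median log2 fold change was −0.65 and −0.76. Tgfbr1, the type I receptor, fell by 1.07 in cortex (SE 0.210, edgeR adjusted p = 0.00666) and stood at −0.69 in hippocampus (edgeR adjusted p = 0.238, called by DESeq2, limma voom and with RLE scaling). Itgav, an integrin that activates latent TGF-beta, fell by 0.97 in cortex (SE 0.245, edgeR adjusted p = 0.0479) and stood at −0.998 in hippocampus (edgeR adjusted p = 0.107). Skil, an inhibitor of SMAD signalling, fell by 0.65 in cortex (SE 0.157, edgeR adjusted p = 0.0342) and stood at 0.12 in hippocampus (edgeR adjusted p = 1), where its sign changed with the scaling. Leaving out 1 of the 8 cortical replicates ended the calls of Itgav and Skil in 6 cases each: for Itgav all but CD11c-negative replicate 1 and CD11c-positive replicate 3, for Skil all but CD11c-negative replicate 3 and CD11c-positive replicate 1. Of 16 identity transcription factors 1 fell in cortex and 0 in hippocampus, beside the same shares of all genes. That gene was Maf, a macrophage factor, at −1.9996 ± 0.259 in cortex (edgeR adjusted p = 5.33e-05) and −0.70 in hippocampus (edgeR adjusted p = 0.343). When genes per cell entered the fit, 0 TGF-beta members and 0 factors were called in cortex. The values there were −1.04 for Tgfbr1 (SE 0.321), −1.50 for Itgav (SE 0.346), −0.32 for Skil (SE 0.220) and −1.65 for Maf (SE 0.371). Each SE was wider than in the main fit, and genes per cell did not overlap between the gates. The lost calls are therefore not read as lost differences.

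The genes around Tmem119 were looked at as neighbours on the chromosome. Within 250 kb of its start GENCODE lists 17 genes, of which 14 had a count and 9 passed the gene filter. The 9 were Selplg, Iscu, Coro1c, Ssh1, Gm3511, Sart3, Cmklr1, Ficd and Gm43336. Selplg alone was called in either gate comparison, beside 1.23% of all genes in cortex and 0.551% in hippocampus. Apart from Selplg and Iscu the group means lay at 0.140 to 60.7 CPM, with SE of 0.833 to 2.30 at the gates. Cmklr1 stood at −2.22 ± 1.66 in hippocampus (edgeR adjusted p = 0.787). With SE this wide, no lack of change is read from these genes. Gm3511 lies within Sart3 and Gm43336 within Coro1c, so their counts are uncertain. Selplg, which encodes the P-selectin ligand PSGL-1 and is also a microglial signature gene, starts 32.1 kb from Tmem119 on the same strand (113818536 to 113832644). It fell by 0.84 in cortex (SE 0.107, edgeR adjusted p = 4.62e-05) and by 0.90 in hippocampus (SE 0.117, edgeR adjusted p = 0.000196). Its level was 2130 ± 139 CPM in CD11c-negative and 1193 ± 81.4 CPM in CD11c-positive APP cortex (n = 4 and 4), and 2768 ± 58.1 and 1488 ± 63.5 CPM in hippocampus (n = 4 and 3), with no overlap between gates. In WT cells it stood at 2142 ± 242 CPM in cortex and 3134 ± 407 CPM in hippocampus. The cortical call was lost when genes per cell, which did not overlap between the gates, entered the fit (−0.69, SE 0.154, edgeR adjusted p = 0.0684). Iscu, an iron-sulphur cluster scaffold gene 27.8 kb away, stood at 107 and 83.2 CPM in CD11c-negative and CD11c-positive APP cortex, and its edgeR adjusted p was 0.950.

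**Figure D4:**
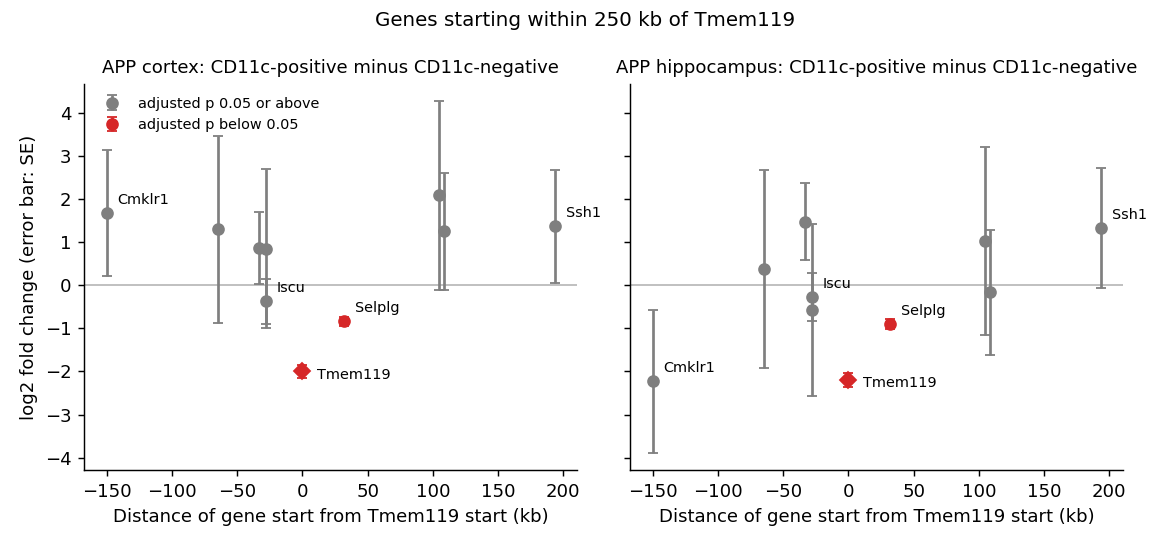
The log2 fold change of CD11c-positive over CD11c-negative APP cells on the y axis (error bars SE) against the distance of each gene's start from that of Tmem119 in kb, for the 9 tested neighbours and Tmem119 (diamond), in cortex and hippocampus. Selplg at 32.1 kb is called at −0.84 and −0.90, and none of the other 8 neighbours is called.

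Over the 6 group means, genes were ranked by the root mean square difference of their centred log2 CPM from that of Tmem119, among 3479 other genes with a mean of at least 50 CPM. The closest was 1700017B05Rik (0.154), and the scavenger receptor gene Stab1 (0.197), Il16 (0.225) and Alox5ap (0.237), which acts in leukotriene synthesis, were also near. Susd3 (0.242), the predicted gene Gm37954 (0.245) and the adhesion receptor gene Adgrg1 (0.248) were close too, against a median of 1.06 over all ranked genes. The nearest to its mirror image were the ribosomal protein genes Rps24 (0.114) and Rps28 (0.268), the respiratory chain gene Ndufa1 (0.194) and the translation factor gene Eef1b2 (0.206). Stab1 stood at 78.3 CPM in WT cortex, 96.2 in WT hippocampus, 83.6 and 82.5 in CD11c-negative APP cortex and hippocampus, and 18.5 and 23.3 in the CD11c-positive groups. The likeness rests on 6 means and is a description.

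Within replicates, Tmem119 went only weakly with other genes from cell to cell. Spearman's rho was computed over the cells of each replicate at 5000 counts and averaged over the 23 replicates, for the same 610 genes. The mean ran from −0.079 to 0.12, and 0 genes exceeded 0.2. Cells of 1 replicate share their library, depth and free RNA, and correlations this weak in sparse counts are no finding. The highest were Selplg (0.12, above 0 in 20 of 23 replicates), the protease gene Ctsd (0.104, 18 of 23) and Cx3cr1 (0.102, 20 of 23), and C1qa, Olfml3, Psap and Creg1 were also among them. Only 4 genes met the rule for the opposite sign: Apoe, the lipid carrier apolipoprotein E (−0.079, below 0 in 18 of 23), Lpcat1, Dst and Clasp2. In the 7 CD11c-positive replicates alone Selplg stood at 0.193 and was above 0 in all 7. Among genes of the same sign in at least 6 of 7, C1qa (0.110), C5ar2 (0.103) and Hsp90b1 (0.102) came next, while P2ry12 (0.103) was above 0 in 5 of 7, and Zcchc8, Adam10, Rbm45 and Evi2a lowest at −0.087 to −0.060. Of 14 homeostatic members measured 13 had a mean above 0 (median 0.055), and of 14 disease-associated members 6 did (median −0.002). Of all 610 genes 274 did (median −0.004), so the disease-associated members lay near the share of all genes.

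**Figure D5:**
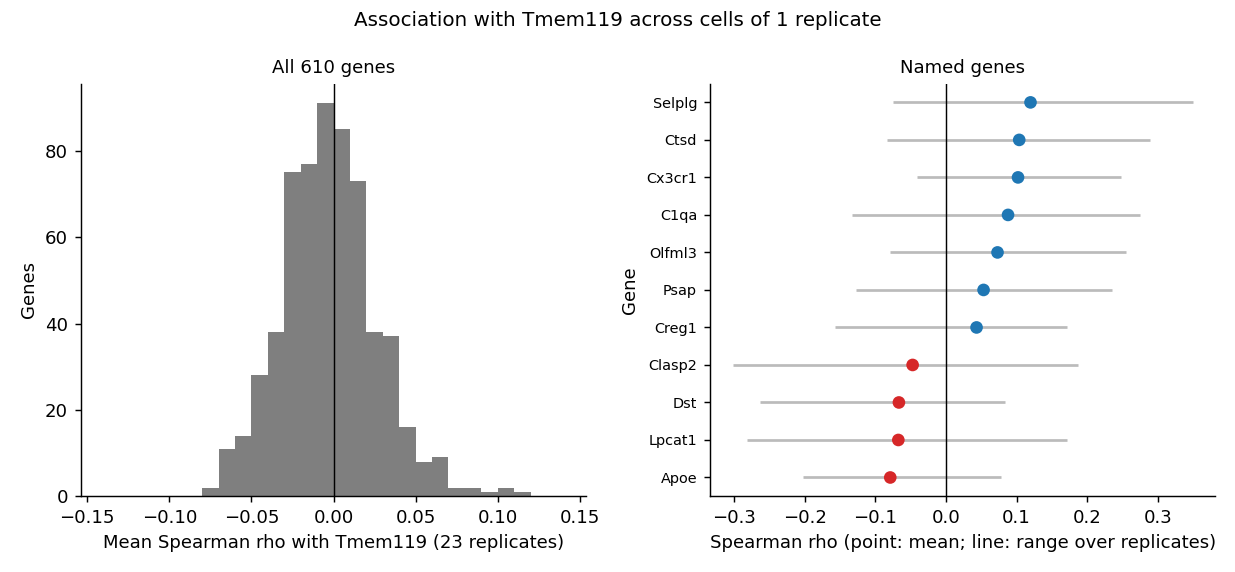
Left, number of genes on the y axis by mean Spearman rho with Tmem119 over 23 replicates, for 610 genes. Right, 11 genes named over all replicates, with the mean as a point and the lowest to highest replicate as a line, which crosses 0 for all 11.

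Cells with and without a Tmem119 count were also set side by side within each replicate, on the mean count per 5000. Apoe was higher in cells with Tmem119 in 3 of 23 replicates, all of them WT cortex. In APP hippocampus CD11c-negative cells Apoe stood at 0.967 ± 0.332 with and 3.001 ± 1.23 without Tmem119 (n = 4). Cells without Tmem119 made up 6.15% to 15.2% of the 64 to 142 cells of these replicates. The mean without Tmem119 thus rests on few cells. In CD11c-positive cortex Apoe stood at 23.6 ± 1.64 with and 26.7 ± 3.30 without Tmem119 (n = 4). The ratio of the mean with Tmem119 to that without was 0.322 in the hippocampal and 0.885 in the cortical cells. These were the lowest and highest ratios of the 6 groups. Selplg and Cx3cr1 were each higher with Tmem119 in 17 of 23 replicates, the summed homeostatic list in 16, P2ry12 in 11 and the summed disease-associated list in 9. Selplg was higher with Tmem119 in all 7 CD11c-positive replicates, at 7.70 ± 0.741 against 6.16 ± 0.852 in cortex (n = 4) and 9.41 ± 0.208 against 7.23 ± 0.558 in hippocampus (n = 3). Genes per cell were higher with Tmem119 in 14 of 23 replicates, and the groups differed. They were higher in 3 of 4 CD11c-positive replicates of cortex and 3 of 3 of hippocampus. Among CD11c-negative replicates this held in 4 of 4 of APP hippocampus, 3 of 4 of WT hippocampus, 1 of 4 of WT cortex and 0 of 4 of APP cortex.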

How the data were processed

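Single microglia were sorted into plates and sequenced with a Smart-seq2-based protocol, per the labels' protocols. Per the submitters' processing notes the authors used UMI-tools 0.5.3, HISAT2 2.1.0 and featureCounts 1.6.0 on GRCm38. The deposited values are the authors' raw counts per gene and cell, with no normalization. The sources used here do not say whether reads of 1 molecule were merged. Of non-zero entries 27.0% were 1, and the 35.9% at 20 or more held 88.8% of counts. The counts may thus be reads, and levels are not read as numbers of molecules.

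Filtering at 200 genes or more and 20% mitochondrial counts or less kept 2657 of 2660 barcodes, and doublets were not called. Of 630 library pairs 0 were identical. Replicate sums (1037425 to 4484427 counts) of animal, region and gate were tested with edgeR 4.0.16 (R 4.3.3, limma 3.58.1): TMM scaling, filterByExpr, 1 mean per group, the quasi-likelihood test and Benjamini-Hochberg adjustment at 0.05 over 14892 genes. CPM are TMM-scaled except for marker sums. Shares were computed with Python 3.11.15, numpy 2.4.6 and scipy 1.17.1 on cells thinned to 5000 counts (seed 119) and tested by exact permutation over replicates. The scripts were tested on simulated data. Gene names and positions came from GENCODE vM21, which matched 26348 of 26348 identifiers.

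The members and lists were chosen with earlier results of these data known. Named genes were Tmem119, the 8 and 8 genes of highest and lowest mean rho with the same sign in at least 18 of 23 replicates (4 and 4 in CD11c-positive replicates, at least 6 of 7), the 8 closest and 4 mirror patterns, the tested neighbours, and per list the 4 most abundant and 2 of smallest p in the cortical gate comparison. Folds are printed for some of these, a choice made after their values were seen. Some results under this rule are not reported here. Predicted, ribosomal and mitochondrial genes were not named from cell-by-cell values. Alternatives were other scalings, no filter, DESeq2 1.42.0, limma voom, 2-group fits with and without the animal as block, genes per cell as covariate, cells without other markers, tag-matching libraries, 1-2 and 2-3 merged, thinned sums, thinning to 2000 or 10000 counts, at least 2 counts, and each replicate left out. The animal numbers pair samples of cortex gates and of regions by title. Correlations of same-numbered deviations were 0.046 to 0.076 between gates in cortex, −0.030 to 0.026 between WT regions and −0.059 to 0.050 between regions of APP CD11c-negative cells.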

Additional observations from a re-analysis of the deposited data

Results flagged for a closer look

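The WT hippocampus replicate 3 stood at 2770 CPM of Tmem119, apart from the other 3 at 1873 to 2025 CPM. The median count of Tmem119-positive cells in APP hippocampus CD11c-negative replicate 4 was 17, apart from 15 in each of the other 3. Of 15 groups of values tested for such a gap 2 were picked out, and chance picks out about 1 in 20.

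The regional difference in the share of cells with a Tmem119 count was not the same in the genotypes. In CD11c-negative cells of APP animals it was 26.2 ± 6.65 points higher in hippocampus (range 16.9 to 31.7, SD, n = 4), and in WT animals 11.7 ± 8.59 points lower (−19.4 to −0.513, n = 4), a difference of 37.9 points (exact permutation of the genotype over 8 animals, two-sided, p = 0.0286, the smallest possible, chosen after seeing the data). The log2 CPM level stood higher in hippocampus in both, by 0.56 ± 0.294 and 0.50 ± 0.171 (exact permutation p = 0.8). The WT share goes against the WT level, so no order of the WT regions is read from it and the share difference is given as a value only. Genes per cell at 5000 counts stood at 549 and 622 in APP cortex and hippocampus and at 591 and 437 in WT, and their part in the share was not tested.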

How the results depend on the processing

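The gate differences in Tmem119 level kept their direction and their call under the alternatives listed for them: −2.12 to −1.90 (−1.896) in cortex over 12 settings and −2.40 to −2.09 in hippocampus over 10, and −2.08 to −2.01 (−2.005) and −2.29 to −2.17 with 1 replicate left out. The same holds against WT, and neither genotype difference was called in any setting. Tag-matching libraries gave no value for CD11c-positive hippocampus.

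The regional difference in APP CD11c-negative cells was not past the threshold with no gene filter (0.55), in the 2-group fit without replicate block (0.55), with the animal as replicate block (0.55, edgeR adjusted p = 0.239), without cells with markers of other types (0.38) and with tag-matching libraries (0.67). With 1 replicate left out it ran from 0.40 to 0.60 and lost the call in 7 of 8 cases (edgeR adjusted p 0.0488 to 0.224). In WT it was past the threshold with DESeq2 (0.39, adjusted p = 0.0390), with limma voom (0.39, adjusted p = 0.0409) and without WT cortex replicate 3 (0.60, edgeR adjusted p = 0.0431), and ran from 0.38 to 0.60 with 1 replicate left out. It was lowest without cells with markers of other types (0.24, edgeR adjusted p = 0.514) and with thinned sums (0.26, edgeR adjusted p = 0.456). The block changed no other Tmem119 call: the cortical gate difference was −2.06 (edgeR adjusted p = 0.000437) and the WT regional difference 0.42 (edgeR adjusted p = 0.575). It moved the count of called genes from 434 to 271 in the cortical gate comparison and from 234 to 0 between the regions of APP CD11c-negative cells.

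Both interactions, not called, changed sign with limma voom (gate by region 0.032, genotype by region −0.035), and genotype by region ran from −0.072 to 0.152 with 1 replicate left out. Skil at the hippocampal gate, not called, was −0.099 with RLE scaling, −0.046 with library totals and −0.097 with DESeq2, and ran from −0.048 to 0.299 with 1 replicate left out, below 0 without CD11c-positive replicate 1-2 (−0.013) or 2-3. The mean rho of Adam10 in CD11c-positive replicates was 0.011 at 2000 counts. Shares kept their sign at 2000 and 10000 counts and at 2 or more counts, with the smallest adjusted p at 0.0514. An exact sign-flip test of the share within animals, chosen after seeing the data, gave p = 0.125 for the cortical gate and for both CD11c-negative regional comparisons, the smallest value that 4 animals allow. The count of disease-associated genes that rose ran from 6 (genes per cell as covariate) to 22 (thinned sums) in cortex and from 6 to 20 in hippocampus, that of homeostatic genes that fell from 2 to 13 (DESeq2) and from 3 to 14 (DESeq2), and that of TGF-beta genes from 0 to 3 in both. A cell with 0 counts at 5000 may hold Tmem119 RNA below that depth.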
